A study of Mus musculus with 27 samples.

Results

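Genes of arginine use and macrophage activation were followed through muscle injury and repair: Arg1, Nos2, Chil3, Retnla, Slc7a2, Il4ra, Il10, Ly6c2, Ccr2 and Cx3cr1. They were chosen by gene name, and each of the 10 names matched 1 entry in both deposited tables, which hold 55852 and 55677 entries. The values are TPM, a transcript's share of its library corrected for length, so that levels of different genes can be set side by side. A gene was tested where it reached 1 TPM in at least 3 libraries of a table. Of the 10 genes 9 passed in each table, and Il10 passed in neither.

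Whole muscle of male mice was used for bulk RNA sequencing, and the mice were WT (C57BL/6J background) or lacking Gsdme in the whole body, which is labelled KO in the sample titles and knockdown in the genotype field. All 24 injured libraries came from muscle injected with cardiotoxin (CTX), a venom peptide that lyses myofibres, and were collected on D1, D4, D7 or D14 (n = 3 per genotype and day). The 3 control libraries came from WT muscle that was not injured, which the study's methods describe as the opposite leg of injured mice, and stand in another table together with the WT D1 libraries. Ages were not given, uninjured KO muscle was not analysed here, and no label links a library number of one group to that of another, so control and D1 libraries may share animals that could not be paired. The batch in which the WT D1 libraries were sequenced is not stated. Batch therefore cannot be told apart from injury, from genotype on D1 or from the WT step from D1 to D4. It also enters the average over days and the test of whether KO minus WT differed between days, since both use D1.

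Macrophages that enter injured muscle come largely from blood monocytes. Young inflammatory monocytes carry Ly6C, part of which is encoded by Ly6c2, and follow the chemokines Ccl2 and Ccl7 through the receptor Ccr2, whereas later cells of the lineage carry the fractalkine receptor Cx3cr1. Arginine is taken up through cationic amino acid transporters such as the Slc7a2 product and is used by arginase 1 (Arg1), which leads to ornithine and polyamines, or by the inducible nitric oxide synthase (Nos2). Interleukin-4 and interleukin-13 act through the receptor chain Il4ra and the factor STAT6 and are textbook inducers of Arg1, Chil3 (a chitinase-like protein, Ym1) and Retnla (a secreted resistin-like protein, Fizz1) in macrophages. Il10 encodes an anti-inflammatory cytokine.

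Chil3 and Retnla are usually listed together as alternative activation genes. Here they moved in opposite directions from control to D1 and from D1 to D4 (below), so their proximal promoters are shown. That of Ly6c2 is added, since its time course resembled that of Chil3. Each run is the 250 bases before the RefSeq start (GRCm38.p6, the mm10 build), 5′ to 3′ on the gene's own strand. Capitals mark matches to a STAT6 motif (TTCNNNNGAA), a shorter STAT motif (TTCNNNGAA) or a TATA motif (TATAAA). The windows are chr16:48842359-48842608 (plus strand) for Retnla, chr3:106167565-106167814 (minus strand) for Chil3 and chr15:75111972-75112221 (minus strand) for Ly6c2.
Retnla: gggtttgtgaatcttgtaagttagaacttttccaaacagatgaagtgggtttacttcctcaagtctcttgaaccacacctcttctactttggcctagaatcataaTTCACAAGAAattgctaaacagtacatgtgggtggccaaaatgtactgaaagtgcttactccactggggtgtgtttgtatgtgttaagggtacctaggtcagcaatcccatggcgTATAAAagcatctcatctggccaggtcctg
Chil3: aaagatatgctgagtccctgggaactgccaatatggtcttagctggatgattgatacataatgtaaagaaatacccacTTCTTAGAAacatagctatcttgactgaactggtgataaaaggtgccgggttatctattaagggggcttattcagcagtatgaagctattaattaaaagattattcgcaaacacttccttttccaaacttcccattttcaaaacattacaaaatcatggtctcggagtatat
Ly6c2: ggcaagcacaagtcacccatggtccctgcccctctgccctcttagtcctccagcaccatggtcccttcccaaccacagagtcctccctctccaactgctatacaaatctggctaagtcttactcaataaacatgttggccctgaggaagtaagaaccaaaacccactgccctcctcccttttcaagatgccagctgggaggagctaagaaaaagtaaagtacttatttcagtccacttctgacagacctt
The STAT6 motif stood 145 bases before the start in Retnla, where the TATA motif stood at 30 bases. The shorter STAT motif stood at 172 bases in Chil3, and Ly6c2 held neither. A PU.1 motif (GAGGAAGT) was found in Retnla, at 198 bases, and in Ly6c2, at 108 bases. Searched on both strands, these letters are in 5.85% (STAT6), 7.02% (shorter STAT), 12.4% (TATA) and 2.44% (PU.1) of 32851 such windows, and an AP-1 motif (TGANTCA), which is in 6.75%, was in none of the 3. A match describes letters only. Windows were at hand for 6 of the 10 genes, and those of Il4ra, Ccr2 and Cx3cr1 held none of the 5 motifs.

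Some libraries stood apart from their group in cell content, and these touch nearly every gene below. In WT D1 replicate 3, 8 mature myofibre genes summed to 107467 TPM, as in control muscle (103868 to 109713), whereas the other injured D1 libraries were from 44079 to 68152. The leukocyte gene Ptprc (CD45) was 6.04 TPM in that library against 17.4 and 35.0 in the other WT D1 libraries. WT D4 replicate 1 had the highest sum of 16 pan-macrophage genes, 10225 TPM against 5123 and 6577 in its group, and KO D4 replicate 2 had a sum of 1003 TPM, against 5410 and 6520. In such bulk samples fewer cells of a type and less RNA per cell cannot be told apart. In KO D7 replicate 2 the myofibre sum was 112225 TPM and the pan-macrophage sum 1044 TPM, against 2142 and 2321 in its group. Gsdme itself, which checks the labels, was from 1.80 to 4.85 TPM in WT and from 0.95 to 2.17 TPM in KO libraries on D1, D4 and D7, where every KO library was below every WT library of its day, and overlapped on D14 (1.46 to 2.26 and 1.27 to 1.96 TPM). From 11785 to 14704 genes reached 1 TPM per library, and the number of reads is unknown.

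**Figure D1:**
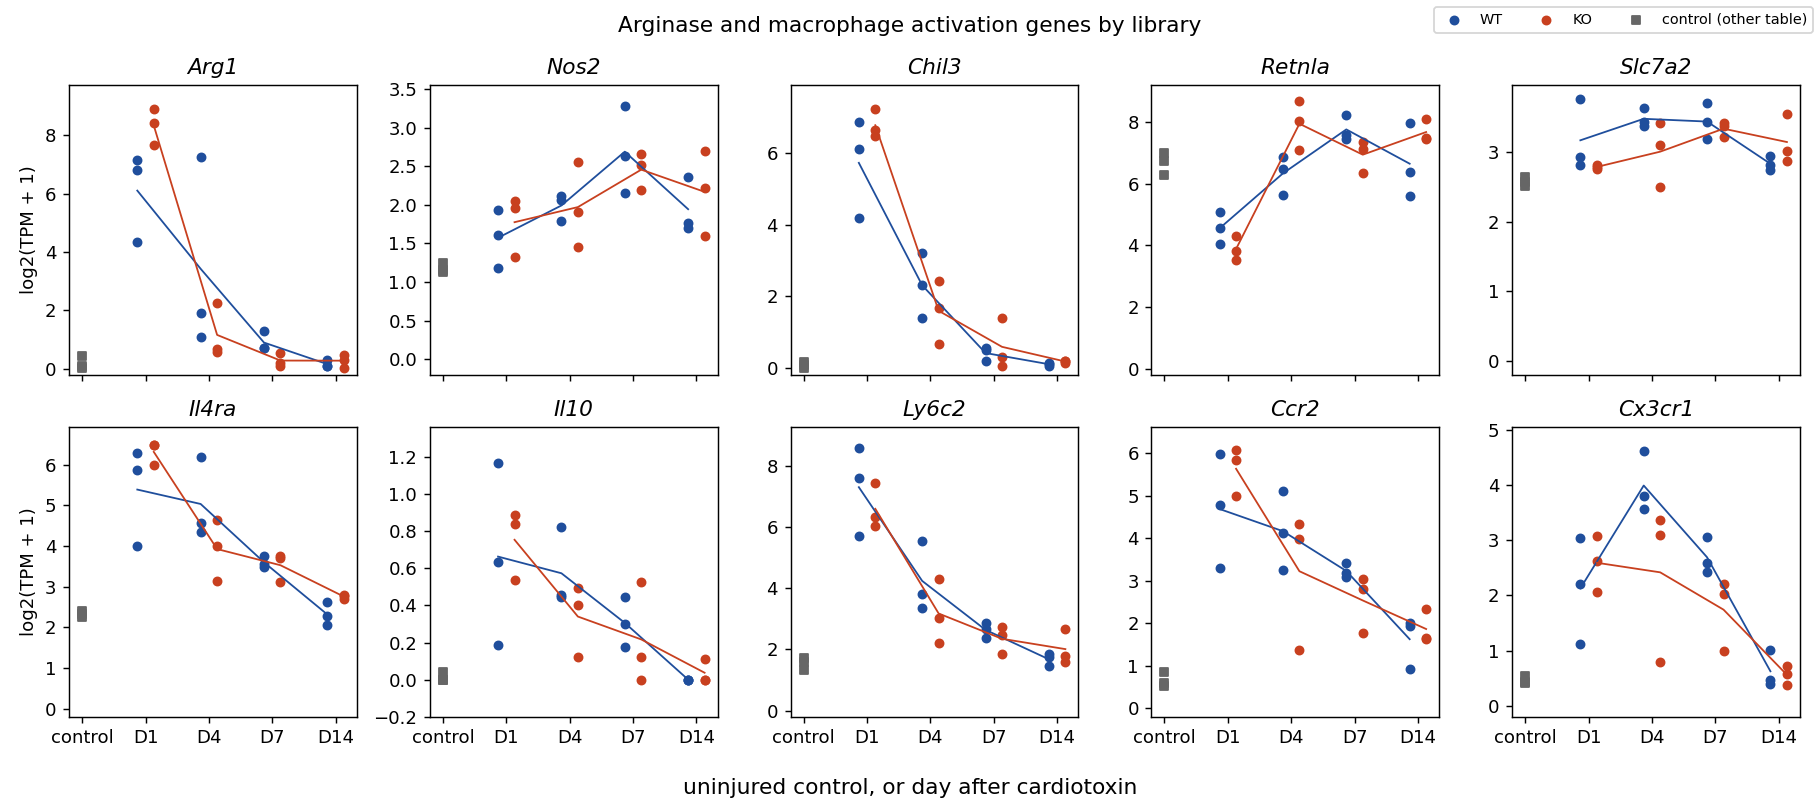
Level of each of the 10 genes, as log2(TPM + 1), in control muscle (squares, from the other table) and on each day after CTX in WT (blue) and KO (red), where points are libraries and lines join group means. Arg1, Chil3, Ly6c2, Ccr2 and Il4ra were highest on D1, Cx3cr1 in WT on D4, and Retnla was lowest on D1.

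On D1 after injury, 6 of the 9 tested genes were higher in WT muscle than in control muscle and 1 was lower (limma, adjusted p under 0.05 over 13041 genes). These were Arg1, Chil3, Ly6c2, Ccr2, Il4ra and Cx3cr1, and Retnla was the lower one. The background is high, since 61.1% of all tested genes were called in this comparison, 55.4% higher and 5.64% lower. The increases ranged on the log2 scale, where the median of all tested genes was 0.66, from 1.67 (Cx3cr1) to 5.90 (Arg1). The WT D1 libraries lay wholly above the controls for 7 of the 9 genes (64.2% of all genes) and wholly below for Retnla (7.03%). For Arg1, Chil3, Ccr2 and Cx3cr1 every control library was under 1 TPM. These genes could pass the filter only if every WT D1 library reached 1 TPM, so their order and direction were fixed beforehand. The same holds for genes of the lists below whose controls were all under 1 TPM. The 7 calls held when any 1 of the 6 libraries was left out.

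Arg1 (ENSMUSG00000019987, chr10:24915221-24927484, minus strand) showed the widest range of the 10 genes. In control muscle it was 0.03, 0.37 and 0.08 TPM. On D1 it was 111, 142 and 19.1 TPM in WT and 342, 201 and 479.8 TPM in KO. It thus went from close to absent to one of the highest values of the 10 genes within a day, and each of the 3 KO libraries exceeded each WT library. The increase from control to WT D1 was 5.90 on the log2(TPM + 1) scale (SE 0.65, adjusted p = 0.00109), and from 5.37 to 6.78 when 1 library was left out.

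On D4 Arg1 was 151, 2.79 and 1.14 TPM in WT and 3.75, 0.48 and 0.59 TPM in KO. WT D4 replicate 1 therefore held nearly all of the Arg1 of its group, and it was also the library with the highest pan-macrophage and neutrophil sums of that day (neutrophil genes 317 TPM, against 23.0 and 38.6 in WT and 12.8 to 51.4 in KO). The levels on D7 were 0.62, 1.44 and 0.64 TPM in WT and 0.08, 0.45 and 0.15 TPM in KO, and no library of D14 exceeded 0.40 TPM. Arg1 fell by 7.17 from D1 to D4 in KO (SE 1.03, adjusted p = 0.000244). In WT the difference was -2.68 (adjusted p = 0.0740), which was not called, whereas without WT D4 replicate 1 it was -4.59 (adjusted p = 0.000282).

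The genotypes were next compared for Arg1. On D1 KO minus WT was 2.23 (SE 1.03, 95% interval 0.08 to 4.38), with an unadjusted p of 0.0427 and an adjusted p of 0.873 in the limma fit, and the exact permutation p was 0.1, the smallest that 3 against 3 can give. Without WT D1 replicate 3, the library with control-like myofibre transcripts, it was 1.35. Neutrophil genes moved with it: their sum was from 327 to 3731 TPM in KO and from 69.1 to 700 TPM in WT D1 libraries, S100a8, an abundant neutrophil transcript, reached 1286 TPM in KO replicate 3, and the defining marker Ly6g stayed at or below 0.38 TPM in all libraries. Their part in the Arg1 difference was not tested. On D4 KO minus WT was -2.26 (unadjusted p = 0.0400, adjusted p = 0.212). It was -0.35 without WT D4 replicate 1 and -0.051 without the 3 D1 and D4 libraries that stood apart, and library quality weights turned it to 0.081. The D4 libraries of the genotypes overlapped. On D7 the KO libraries were wholly below the WT libraries, with a difference of -0.62 at levels near or under 1 TPM (exact permutation p = 0.1). Arg2, which encodes the mitochondrial arginase, was from 0.43 to 3.69 TPM in WT and from 3.31 to 9.72 TPM in KO on D1, and at most 1.35 TPM in any later library.

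Nos2 (ENSMUSG00000020826, chr11:78920787-78960254, plus strand), which competes with arginase for arginine, stayed low. It was 1.19, 1.37 and 1.23 TPM in control muscle, from 1.26 to 3.12 TPM on D1, from 1.73 to 4.87 TPM on D4, from 3.46 to 8.71 TPM on D7 and from 2.01 to 5.46 TPM on D14. The highest value was that of WT D7 replicate 3, and the genotypes overlapped on each day. With all libraries weighted alike Nos2 was called in no comparison. On D1 against control the difference was 0.40 (adjusted p = 0.166), below the median of 0.66 for all genes, and -0.096 with median-of-ratios scaling. Without WT D1 replicate 3 it was 0.60 and was called (adjusted p = 0.0271), where 69.9% of all genes were called. Library quality weights called it there (adjusted p = 0.000949), from D4 to D7 in WT (adjusted p = 4.38e-05) and from D7 to D14 in WT (adjusted p = 0.0214), in fits that called 83.2%, 67.4% and 60.5% of all genes. Arg1 and Nos2 were thus far apart on D1, where Arg1 was from 19.1 to 479.8 TPM, whereas from D7 on each Nos2 library was above each Arg1 library.

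Slc7a2 (ENSMUSG00000031596, chr8:40862396-40922308, plus strand) encodes a cationic amino acid transporter that imports arginine. It was 5.26, 4.96 and 4.71 TPM in control muscle. In WT it was from 6.06 to 12.6 TPM on D1, from 9.41 to 11.4 on D4, from 8.09 to 12.0 on D7 and from 5.69 to 6.69 on D14. In KO these ranges were 5.75 to 6.07, 4.66 to 9.69, 8.32 to 9.74 and 6.33 to 10.7 TPM. It was the steadiest of the 10 genes and had no call in the fits that kept all libraries of a table at equal weight. All WT D1 libraries were above the controls, with a difference of 0.59 (adjusted p = 0.0892) against a median of 0.66 for all genes, and median-of-ratios scaling, which brings that median to about 0, turned it to -0.081. It was called there without WT D1 replicate 2 (0.77, adjusted p = 0.0411) and with library quality weights (0.35, adjusted p = 0.00764). From D7 to D14 in WT it was called lower with quality weights (adjusted p = 0.00197) and with only the groups compared (adjusted p = 0.0167), where 60.5% and 56% of all genes were called. A predicted antisense entry, Gm26584, overlaps the gene, and the use of strand in quantification was not stated.

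The other genes of arginine and polyamine metabolism moved as a mixed group. Of 22 tested, 13 were called higher and 3 lower on D1 against control, where 55.4% of all genes were called higher and 5.64% lower, and their median was 0.97 beside 0.66 for all genes. Azin1, an activator of polyamine synthesis, rose from a mean of 9.95 to 50.7 TPM (log2 difference 2.19, adjusted p = 0.00109), and Srm, spermidine synthase, rose from 7.24 to 57.9 TPM (2.70, adjusted p = 0.00154). Smox, the spermine oxidase, fell from 423 to 78.4 TPM (-2.50, adjusted p = 0.00142). From D1 to D4, 4 were called higher and 3 lower of 23 in WT (14.6% and 5.27% of all genes), and 2 higher and 9 lower in KO (7.18% and 12.2%). Odc1, ornithine decarboxylase, was lower in both (-1.05 in WT, adjusted p = 0.00181, and -1.28 in KO, adjusted p = 0.000751). From D7 to D14, 14 of 23 were lower in WT (30.9% of all genes). Between KO and WT 0 of 23 were called on any day. The largest number at an unadjusted p under 0.05 was 8, on D4, where 22.7% of all genes were under it, among them Ass1, which remakes arginine from citrulline (14.2 to 38.5 TPM in WT and 3.43 to 11.3 TPM in KO).

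Il4ra (ENSMUSG00000030748, chr7:125552120-125579474, plus strand), the receptor chain shared by interleukin-4 and interleukin-13, was 4.24, 3.78 and 4.03 TPM in control muscle. On D1 it was 58.1, 77.9 and 14.9 TPM in WT and 88.2, 63.0 and 88.3 TPM in KO. It was higher in WT D1 than in control muscle by 3.07 (SE 0.52, adjusted p = 0.00271). On D4 it was 72.2, 22.9 and 19.3 TPM in WT and 23.9, 7.80 and 15.1 TPM in KO, which overlap, and WT D4 replicate 1 was again the highest. It fell by 2.39 from D1 to D4 in KO (adjusted p = 0.00331) and was not called in WT. KO minus WT on D4 was -1.11 (unadjusted p = 0.0365, adjusted p = 0.212), and -0.14 without the 3 D1 and D4 libraries that stood apart. It was from 7.70 to 12.5 TPM on D7. On D14 it was 3.82, 5.13 and 3.17 TPM in WT and 5.50, 5.87 and 5.92 TPM in KO, wholly higher in KO by 0.44 (exact permutation p = 0.1, adjusted p = 1 in the limma fit).

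The ligands of that receptor were near the lower end of detection. Il4 was at most 1.08 TPM and Il13 at most 0.05 TPM in any library. Among the other genes of interleukin-4 and interleukin-13 signalling and alternative activation, 11 of 18 tested were called higher on D1 against control and 2 lower, close to the 55.4% and 5.64% of all genes, with a median of 1.21 beside 0.66. The mannose receptor gene Mrc1 rose from a mean of 4.84 to 30.3 TPM (log2 difference 2.32, adjusted p = 0.00181) and Clec7a, the dectin-1 receptor gene, from 0.58 to 20.2 TPM (3.44, adjusted p = 0.00229). In the KO and WT comparison 0 of 21 were called on any day. On D1 the chemokine Ccl24 was from 18.0 to 27.7 TPM in KO and from 8.33 to 11.3 TPM in WT (1.14, unadjusted p = 0.000661, adjusted p = 0.628).

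Chil3 (ENSMUSG00000040809, chr3:106147554-106167564, minus strand) was 0.11, 0.05 and 0 TPM in control muscle. On D1 it was 68.7, 117 and 17.2 TPM in WT and 149, 88.3 and 98.5 TPM in KO, which overlap. The increase over control was 5.66 (SE 0.58, adjusted p = 0.00101). On D4 it was 8.19, 4.00 and 1.61 TPM in WT and 4.41, 0.57 and 2.20 TPM in KO, and after that no library exceeded 1.63 TPM. Chil3 fell by 3.43 from D1 to D4 in WT (SE 0.55, adjusted p = 0.00038) and fell by 5.20 in KO (adjusted p = 2.86e-05). The further step to D7 was -1.90 in WT (adjusted p = 0.0343), a call that was lost in 5 of 6 fits without 1 library. Part of its sequence is shared with relatives: 14.2% of its 75-base words also occur in Chil4 or Gm6522. Chil4 was at most 0.33 TPM.

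Retnla (ENSMUSG00000061100, chr16:48842551-48844461, plus strand) ran the other way. It was already abundant in control muscle, at 107, 128 and 76.5 TPM, and lowest on D1, at 15.4, 22.6 and 32.8 TPM in WT and 18.9, 10.5 and 13.2 TPM in KO. It was 4.34-fold lower in WT D1 than in control muscle (log2 difference -2.12, SE 0.29, adjusted p = 0.0017). On D4 it was 49.1, 118 and 89.5 TPM in WT and 417, 137 and 266 TPM in KO. Each KO library exceeded each WT library, although KO replicate 2 was only slightly above the highest WT library. From D1 to D4 Retnla rose by 1.79 in WT (SE 0.50, adjusted p = 0.0165) and by 4.07 in KO (SE 0.50, adjusted p = 7.59e-05). The WT call was lost without WT D1 replicate 1 or WT D4 replicate 2 (1.52 and 1.51), and the KO call held in each fit without 1 library.

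Retnla also showed the clearest contrast between genotypes among the 10 genes, though no call. On D4 KO minus WT was 1.61 (SE 0.50, 95% interval 0.56 to 2.67), with an unadjusted p of 0.00462, an adjusted p of 0.212 and an exact permutation p of 0.1. It was 1.69 without the 3 D1 and D4 libraries that stood apart and from 1.24 to 2.04 when 1 library was left out. On D7 the order was the opposite: 305, 194 and 175 TPM in WT and 165, 80.7 and 139 TPM in KO, with a difference of -0.82 (exact permutation p = 0.1, adjusted p = 0.776) that was -0.52 without KO D7 replicate 2. On D14 the genotypes overlapped, at 82.4, 254 and 47.6 TPM in WT and 180, 274 and 176 TPM in KO. The limma F test of whether KO minus WT differed between days gave an unadjusted p of 0.00511 and an adjusted p of 0.527 for Retnla, where 7.65% of all genes were under an unadjusted p of 0.05. The study itself lists Retnla from these libraries, so its direction there is not independent evidence.

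Retnla is known from adipose tissue and eosinophil-rich sites as well as from macrophages, and genes of such cells were read beside it. On D4, 7 adipocyte genes summed to 657, 1450 and 583 TPM in KO and 662, 389 and 281 TPM in WT, and 12 eosinophil and mast cell genes to 67.8 to 78.0 TPM in KO and 43.1 to 72.2 TPM in WT. KO D4 replicate 2 had the highest adipocyte sum and the lowest Retnla of its group. On D1 against control, where Retnla fell, 5 of 6 adipocyte genes were called lower, beside 5.64% of all genes. Adipoq was among them (-2.68, adjusted p = 0.0132). On D7, where Retnla was wholly lower in KO, the adipocyte sums were 725, 407 and 629 TPM in KO and 511, 531 and 595 TPM in WT, which overlap. The D7 libraries stood in the same order in both in KO and in the opposite order in WT. On D14 the adipocyte sums were 727, 1966 and 1441 TPM in KO and 390, 455 and 382 TPM in WT. There the library with the highest sum also had the highest Retnla in each genotype, and in WT all libraries stood in the same order in both. Their part in the Retnla values was not tested. Its relatives Retnlb and Retnlg were at most 0.10 and 106 TPM, and Retnlg, which neutrophils express, was highest on D1. Retnla shares no 75-base word with another transcript.

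Il10 (ENSMUSG00000016529, chr1:131019845-131024974, plus strand) was 0, 0.03 and 0 TPM in control muscle and was too low for the test. On D1 it was 0.55, 1.25 and 0.14 TPM in WT and 0.79, 0.45 and 0.85 TPM in KO, and on D4 0.77, 0.37 and 0.36 TPM in WT and 0.32, 0.09 and 0.41 TPM in KO. Each D1 library was thus above each control library, and the genotypes overlapped on both days. By D14 it was listed at 0 in 5 of 6 libraries. The genes that act with it were well detected. Of 9 genes of interleukin-10 signalling, 8 were called higher on D1 against control (55.4% of all genes), with a median of 2.14 beside 0.66 for all genes, among them Socs3, a feedback inhibitor (from a mean of 1.91 to 35.3 TPM, log2 difference 3.42, adjusted p = 0.00155), and Il1rn, the interleukin-1 receptor antagonist (from 0.08 to 24.4 TPM, 4.16, adjusted p = 0.00204). Both also respond to other signals. From D1 to D4, 4 of 9 were called lower in KO (12.2% of all genes) and 0 in WT (5.27%), a difference that was not tested.

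Ly6c2 (ENSMUSG00000022584, chr15:75108158-75111970, minus strand) was 1.52, 2.27 and 2.00 TPM in control muscle. On D1 it was 193, 385 and 51.6 TPM in WT and 171, 64.6 and 79.3 TPM in KO. Unlike Arg1 and Chil3, its highest D1 libraries were WT libraries, though the groups overlapped. It was higher in WT D1 than in control by 5.76 (SE 0.61, adjusted p = 0.00101). On D4 it was 45.7, 13.1 and 9.22 TPM in WT and 18.6, 3.64 and 7.06 TPM in KO, and from D7 on it was below the lowest WT library of D4. The fall from D1 to D4 was called in both genotypes, with -3.06 in WT (adjusted p = 0.00226) and -3.42 in KO (adjusted p = 0.00164). Its neighbour Ly6c1, which endothelial cells express, shares 21.9% of the 75-base words of Ly6c2 but stayed between 190 and 372 TPM in all libraries. The ratio of Ly6c2 to Ly6c1 was 0.00805 in control muscle and 0.66 on WT D1, so the 2 entries did not move together.

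Ccr2 (ENSMUSG00000049103, chr9:124101950-124113557, plus strand), the chemokine receptor of inflammatory monocytes, was 0.43, 0.80 and 0.52 TPM in control muscle. On D1 it was 26.7, 62.3 and 8.82 TPM in WT and 56.3, 31.0 and 66.6 TPM in KO, and the increase in WT was 4.03 (SE 0.57, adjusted p = 0.00181). On D4 it was 33.8, 16.4 and 8.59 TPM in WT and 19.2, 1.58 and 14.7 TPM in KO. In contrast to Ly6c2 and Chil3, the WT libraries of D4 still overlapped those of D1. In KO it fell by 2.41 from D1 to D4 (adjusted p = 0.0209), a call that was lost in 3 fits without 1 library (-1.48 without KO D4 replicate 2). On D7 it was 9.73, 8.04 and 7.54 TPM in WT and 7.23, 2.39 and 6.01 TPM in KO, wholly lower in KO by a difference of -0.69 (exact permutation p = 0.1, adjusted p = 0.776), which was -0.31 without KO D7 replicate 2. On D14 it was from 0.90 to 4.04 TPM, and 5 of 6 libraries were above 2 TPM, higher than any control library of the other table.

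Cx3cr1 (ENSMUSG00000052336, chr9:119901616-120069879, minus strand) peaked later in WT, whereas in KO the D1 and D4 libraries overlapped. It was 0.34, 0.33 and 0.45 TPM in control muscle, and 3.63, 7.26 and 1.18 TPM in WT and 5.17, 3.19 and 7.47 TPM in KO on D1 (WT D1 against control 1.67, SE 0.42, adjusted p = 0.0103). On D4 it was 23.5, 12.9 and 10.8 TPM in WT and 9.27, 0.74 and 7.54 TPM in KO. All WT libraries were thus above the WT libraries of D1 and above all KO libraries of D4. From D1 to D4 it rose by 1.87 in WT (SE 0.55, adjusted p = 0.0209) and was not called in KO. This call was lost without WT D1 replicate 3 or WT D4 replicate 1. On D7 it was 7.32, 5.01 and 4.38 TPM in WT and 3.62, 0.98 and 3.08 TPM in KO. From D7 to D14 it fell by 2.07 in WT (adjusted p = 0.0134), to between 0.31 and 1.02 TPM, while the KO libraries of D14 were from 0.30 to 0.65 TPM. That call was lost without WT D14 replicate 3 or WT D7 replicate 1. The annotated span overlaps 9 other genes, including the muscle gene Xirp1.

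Cx3cr1 was lower in KO on D4 and D7, without overlap but without a call. On D4 KO minus WT was -1.57 (SE 0.55, 95% interval -2.72 to -0.43), with an unadjusted p of 0.00959 and an adjusted p of 0.212. It was -0.77 without KO D4 replicate 2 and -0.45 without the 3 D1 and D4 libraries that stood apart. On D7 the difference was -0.95 (adjusted p = 0.776), and -0.57 without KO D7 replicate 2. Pan-macrophage transcripts moved with it: their median difference of KO minus WT was -1.10 on D4 and -0.59 on D7, and their sum was 6520, 1003 and 5410 TPM in KO and 10225, 6577 and 5123 TPM in WT on D4.

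Among the other genes of monocyte recruitment and differentiation, 12 of 15 tested were called higher on D1 against control and 0 lower, with a median of 2.60, where 55.4% of all genes were called higher and their median was 0.66. The same background holds for the other lists of this comparison. Ccl2, the main ligand of Ccr2, rose from a mean of 1.95 to 395 TPM (log2 difference 6.68, adjusted p = 0.000615), and Ccl7 from 0.73 to 324 TPM (7.21, adjusted p = 0.000326). Both were lower on D4 than on D1, Ccl2 by -3.58 in WT (adjusted p = 0.00464) and -5.89 in KO (adjusted p = 0.000219). The ligand of Cx3cr1, Cx3cl1, was called higher from D1 to D4 in WT (1.14, adjusted p = 0.00844) and lower from D7 to D14 (-1.32, adjusted p = 0.00748). All 16 pan-macrophage genes were higher on D1. So were 17 of 20 genes of classical activation, among them Cxcl10 (from 0.72 to 13.7 TPM) and Il1b (from 0.21 to 12.7 TPM). Beside them, all 8 tested neutrophil genes were called higher. In no list was a gene called between KO and WT on any day.

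**Figure D2:**
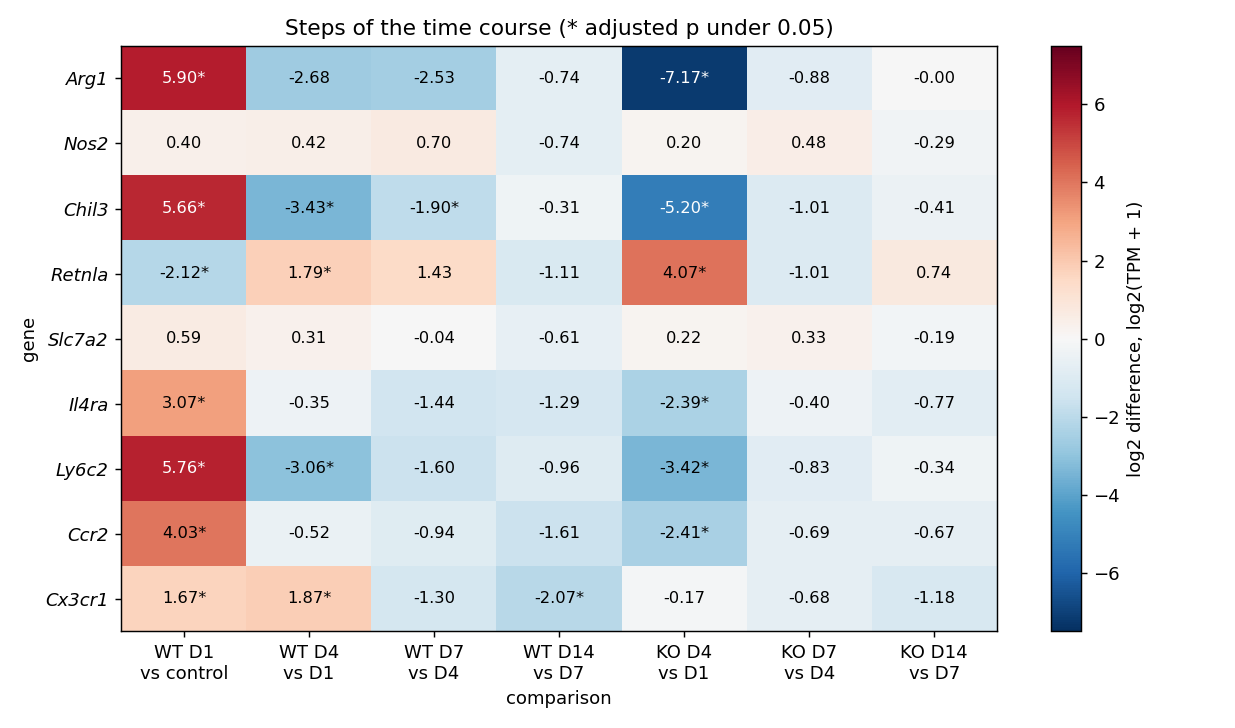
Difference on the log2(TPM + 1) scale for 9 genes (rows) in WT D1 against control and in each step of the time course per genotype (columns), with an asterisk where the adjusted p was under 0.05. The first step from D1 to D4 holds 4 calls in WT and 6 in KO. Of the genes called in that step in both genotypes, Chil3 and Ly6c2 fell and Retnla rose.

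Over the time course, the step from D1 to D4 held most of the calls, which in WT cannot be told apart from batch. In WT 4 of 9 genes were called, Chil3 and Ly6c2 lower and Retnla and Cx3cr1 higher, where 19.8% of all genes were called (14.6% higher and 5.27% lower). In KO 6 of 9 were called, Arg1, Chil3, Ly6c2, Il4ra and Ccr2 lower and Retnla higher, where 19.4% of all genes were called (7.18% higher and 12.2% lower). Without the 3 D1 and D4 libraries that stood apart, the count was 6 in both genotypes, and the same 6 genes were called, Arg1, Il4ra and Ccr2 being added and Cx3cr1 lost in WT. In these fits 19.4% of all genes were called in WT and 20.8% in KO. From D4 to D7 only Chil3 was called, lower, in WT (12.3% of all genes, 9.31% lower) and no gene in KO (0% of all genes). Without KO D4 replicate 2 alone, 0 of 9 were called in KO (8.75% of all genes). The other 2 libraries that stood apart are of WT D1 and WT D4. They enter this step only through the shared estimate of the spread. When they were left out as well, 6 of 9 were called lower in KO: Arg1, Chil3, Il4ra, Ly6c2, Ccr2 and Cx3cr1. In that fit the share of all genes called, in either direction, was 19.8%. From D7 to D14 only Cx3cr1 was called, lower, in WT (31.8% of all genes, 30.9% lower) and none in KO (0.56%). A call in one genotype and not in the other does not show that the genotypes differed in that step.

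Between KO and WT 0 of 9 genes were called on any day, over 15718 genes, where the background was 0.00636% on D1 and 0% on D4, D7 and D14, nor were any called on average over days (background 0.00636%). At an unadjusted p under 0.05 there was 1 gene on D1 (Arg1, where 5.38% of all genes were under it), 4 on D4 (Arg1, Retnla, Il4ra and Cx3cr1, where 22.7% were), 0 on D7 (3.06%) and 0 on D14 (2.06%). The median of all genes was -0.28 on D4, the direction of Arg1, Il4ra and Cx3cr1 and not of Retnla. Libraries did not overlap for Arg1 on D1 (higher, 3.33% of all genes), for Retnla (higher, 2.77%) and Cx3cr1 (lower, 11.2%) on D4, for Arg1, Retnla, Ccr2 and Cx3cr1 (lower, 14.6%) on D7, and for Il4ra (higher, 7.37%) on D14. The F test called none of the 9 (0% of all genes). The intervals were wide, so these data do not show that the genotypes were alike in the genes without a call.

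**Figure D3:**
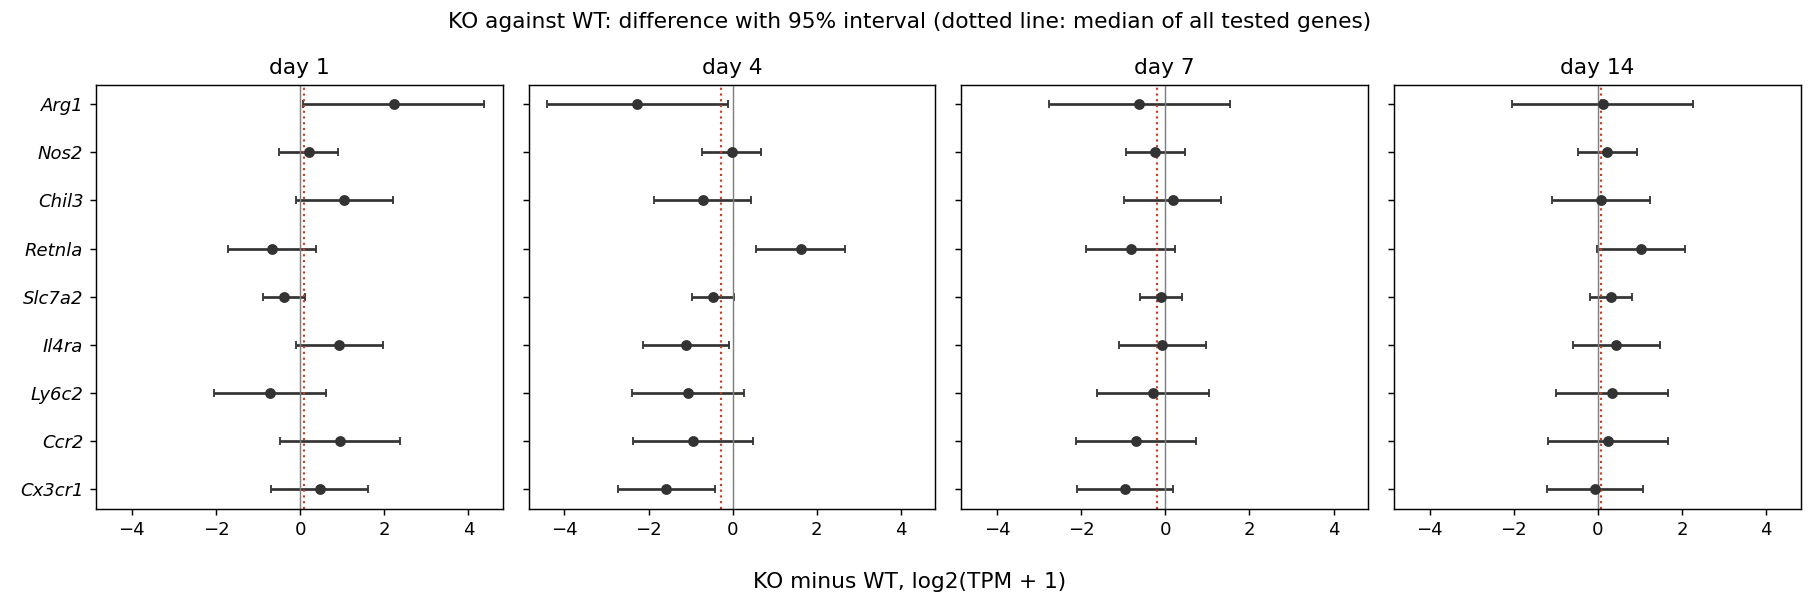
KO minus WT on the log2(TPM + 1) scale for 9 genes (rows) on each day (panels), as the estimate with its 95% interval, where the dotted red line is the median of all 15718 tested genes. Retnla and Cx3cr1 on D4 are the points whose intervals lie farthest from 0, at 1.61 and -1.57, and the intervals of Arg1 are the widest.

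Because pan-macrophage transcripts differed so much between libraries, the 9 genes were also read relative to them, as log2(TPM + 1) minus the mean of 16 pan-macrophage genes in the same library. On this scale 3 of the 9 genes did not overlap on D1 (5.78% of all genes), 2 on D4 (12.9%), 3 on D7 (25%) and 0 on D14 (1.72%), each with an exact permutation p of 0.1. KO minus WT for Retnla was 2.73 on D4, -1.23 on D1 and -0.28 on D7. The D1 value was -0.47 without WT D1 replicate 3, and the D4 value was 1.67 without WT D4 replicate 1 and KO D4 replicate 2. Before the subtraction the Retnla differences were 1.61 on D4, -0.67 on D1, where libraries overlapped, and -0.82 on D7. The gap between the scales is the panel's own KO minus WT difference. For Arg1 the relative difference was 1.67 on D1 (1.29 without WT D1 replicate 3), whereas its D4 and D7 values overlapped. For Ly6c2 it was -1.26 on D1, for Cx3cr1 -0.46 on D4 and -0.40 on D7, and for Il4ra 0.47 on D7. On average over the 4 days, over 160000 assignments of genotype within days, Cx3cr1 differed by -0.29 (exact permutation p = 0.0165), Chil3 by 0.39 (p = 0.0370) and Il4ra by 0.29 (p = 0.0558), unadjusted for the 9 genes read. The share of all genes under 0.05 on this averaged scale was not computed, so these p-values cannot be read as particular to these genes. Which of them were under 0.05 depended on single libraries, and only Cx3cr1 was without the 3 libraries of D1 and D4 that stood apart.

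**Figure D4:**
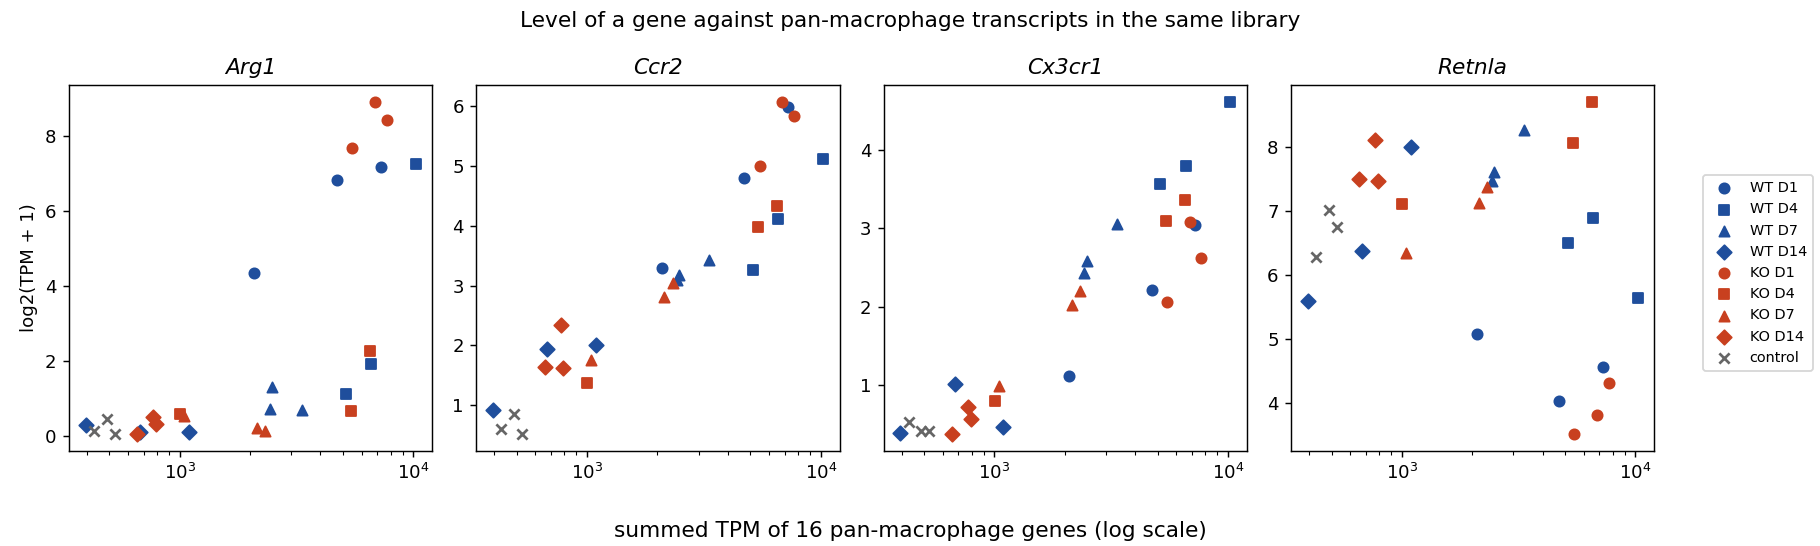
Level of Arg1, Ccr2, Cx3cr1 and Retnla, as log2(TPM + 1), against the summed TPM of 16 pan-macrophage genes in the same library (log scale), with shapes for days, blue for WT, red for KO and grey crosses for control. Ccr2 was high where the sum was high, and so was Cx3cr1 except in the D1 libraries, where it was at most 7.47 TPM. Arg1 was high in the D1 libraries and in 1 WT D4 library, and Retnla did not follow the sum.

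Read across the 24 injured libraries, the genes fell into a common pattern with 3 departures. As a description, since all points share days, libraries and cell content, Pearson's r on the log2(TPM + 1) scale was from 0.87 to 0.96 among Arg1, Chil3, Il4ra, Ly6c2 and Ccr2. Cx3cr1 had r of 0.76 with Ccr2 and 0.46 with Arg1. Retnla ran against this group (r of -0.84 with Arg1 and -0.82 with Chil3), and Nos2 and Slc7a2 had r between -0.48 and 0.39 with the other genes. The genes most like Arg1 over these libraries were Ifitm1 (r = 0.99), Cxcl5 (r = 0.99) and Ppbp (r = 0.98). Those most like Ly6c2 were Slfn4, Ccl2 and Ccl7 (r = 0.98 each), and Il4ra was most like Gpr35, Sbno2 and Itgam (r = 0.99 each). Retnla was most like Abca6, Scara5 and Efhd1 (r = 0.91, 0.89 and 0.89), and Nos2 most like Bcl6b, Gucy1b1 and Ano1 (r = 0.91, 0.88 and 0.86). Cx3cr1 was most like Lbh, Xylt2 and Ldb1 (r = 0.98 each), Ccr2 like Plek, BC005537 and Agfg1 (r = 0.99 each), Chil3 like Ampd3, Gm14548 and F10 (r = 0.98 each) and Slc7a2 like Fut10, Nbea and Setbp1 (r = 0.86, 0.83 and 0.80).

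By mean TPM, the order of the 10 genes turned over within the time course. On D1 in KO it was led by Arg1 (341 ± 139, SD, n = 3), Chil3 (112 ± 32.7) and Ly6c2 (105 ± 57.6), of which the last pair overlapped. In WT D1 it was led by Ly6c2 (210 ± 167), Arg1 (90.8 ± 64.0) and Chil3 (67.7, with libraries from 17.2 to 117), whose libraries all overlapped. In control muscle and on D4, D7 and D14 in both genotypes Retnla was the most abundant of the 10 by its mean. For Arg1 the groups ran from KO D1 over WT D1, WT D4 (51.8 ± 86.3) and KO D4 (1.61 ± 1.86) to WT D7 (0.90 ± 0.468), where neighbours overlapped except KO D1 and WT D1. KO D7, KO D14, control and WT D14 followed, below WT D7 and overlapping each other. For Retnla they ran from KO D4 (273 ± 140), WT D7 (225 ± 70.0) and KO D14 (210 ± 55.2), which overlapped, to WT D1 (23.6 ± 8.76) and KO D1 (14.2 ± 4.28), which overlapped each other and no other group.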

How the data were processed

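The 10 genes and the gene lists were chosen with earlier results of these data known. RNA of the 27 libraries was made into libraries with a SMARTER kit and sequenced from both ends, and the authors deposited 2 tables of TPM per gene (mm10 per the labels); the quantification software was not given in the sources used here. As TPM is a share, a gain in abundant genes lowers all others, and depth is unknown, so no counting interval was computed.

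Values were analysed as log2(TPM + 1), which understates the change of low genes. Genes of at least 1 TPM in at least 3 libraries were tested with limma 3.58.1 (R 4.3.3) on group means with a variance trend, separately for the table with controls (13041 genes) and the injured table (15718 genes, 8 groups sharing 1 estimate of the spread). Benjamini-Hochberg adjustment ran over all genes of a comparison, and a gene is called at an adjusted p under 0.05. Exact permutation tests were two-sided. The fit was tested on simulated data. p-values measure the spread between libraries labelled as replicates. The text names all 10 genes, up to 4 genes per list and comparison with the lowest p, 11 defining markers, and the 3 genes most like each tested gene by Pearson's r. Retnlb and Retnlg were added after their values were seen. Alternatives were the pseudocount, the filter, median-of-ratios scaling, library quality weights, a replicate block, the groups compared alone, leaving out 1 library (same genes tested), and, chosen after seeing the data, leaving out 3 libraries that stood apart. Coordinates and 75-base words are from GENCODE M21 and promoters from RefSeq.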

Additional observations from a re-analysis of the deposited data

Results flagged for a closer look

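Both results concern KO minus WT differences that had opposite signs on different days, with every KO library on one side of every WT library each time. They were picked by that rule. Over all genes, KO libraries lay wholly higher for 3.33% on D1 and 2.77% on D4, and wholly lower for 14.6% on D7. The share of all genes separated in both directions was not computed. For Arg1 the difference was 2.23 on D1, where the KO libraries were from 201 to 479.8 TPM and the WT libraries from 19.1 to 142 TPM, and -0.62 on D7, where they were from 0.08 to 0.45 and from 0.62 to 1.44 TPM. For Retnla it was 1.61 on D4, where the KO libraries were from 137 to 417 TPM and the WT libraries from 49.1 to 118 TPM, and -0.82 on D7, where they were from 80.7 to 165 and from 175 to 305 TPM. Leaving out 1 library moved 2 of these values most: Arg1 on D1 was 1.35 without WT D1 replicate 3, and Retnla on D7 was -0.52 without KO D7 replicate 2. The difference between these pairs of days was not tested by itself. The limma F test over all days gave an adjusted p of 0.527 for both, and an unadjusted p of 0.0428 for Arg1 and of 0.00511 for Retnla, where 7.65% of all genes were under an unadjusted p of 0.05.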

How the results depend on the processing

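Alternatives changed mainly the counts of called genes in the time steps, and the causes were not tested. From WT D1 to D4 the count was 4, and 2 with only the groups compared, where 9.13% of all genes were called instead of 19.8%. From WT D4 to D7 it was 1 (12.3% of all genes). It was 0 without a filter (4.55%), 2 with median-of-ratios scaling (11.6%) and 8 with library quality weights (67.4%). With only the groups compared it was 3 (13.6%), and without the 3 libraries that stood apart 2 (11.6%). Without 1 library it was 0 to 3 (1.34% to 10.2%). From WT D7 to D14 it was 1 (31.8%), 2 with a pseudocount of 0.1 (35.7%) and 2 with a filter of 5 TPM (40.4%). It was 7 with quality weights (60.5%), 5 with only the groups compared (56%) and 0 to 2 without 1 library (1.82% to 26.6%). In KO it was 0 from D4 to D7, 0 without KO D4 replicate 2 alone (8.75%) and 6 without the 3 libraries (19.8%). From D7 to D14 in KO it was 0, and 3 with quality weights (50%). The genes under 0.05 relative to pan-macrophage genes were 2, and 1 without the 3 libraries and 1 to 3 without 1 library, with no share of all genes computed. Under the replicate block the WT D7 to D14 count was 2 (32% of all genes). No label pairs samples by these numbers. Deviations of same-numbered libraries correlated between -0.40 and 0.39, which with 3 libraries per group can neither show nor exclude pairing. The block moved no other count of called genes by over 1.5 times.

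Reversed values were Slc7a2 and Nos2 on WT D1 against control (-0.081 and -0.096 with median-of-ratios scaling) and KO minus WT of Arg1 on D4 (0.081 with quality weights). Cx3cr1 on WT D1 against control lost its call without a filter. Between KO and WT 0 genes were called under each alternative run. Of 64 differences that the text does not print, 13 changed sign under an alternative that kept all libraries and 21 without 1 library.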
